A study of Mus musculus with 4 samples.

Results

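The genes described are the ribosomal protein genes of mouse pachytene spermatocytes, together with the paralogs that germ cells use beside them. They were chosen by name: every gene symbol made of Rpl or Rps followed directly by a digit, plus Rplp0, Rplp1, Rplp2 and Rpsa, without the Rps6k kinases and without names that contain -ps. The rule took 86 of the 23420 gene symbols measured, 52 of the large and 34 of the small ribosomal subunit by name. Of these, 82 lie on autosomes and 4, Rpl10, Rpl36a, Rpl39 and Rps4x, on the X chromosome. The rule also took Rps19bp1, which encodes a binding partner of a ribosomal protein, and it was kept as a member.

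The cells came from the testes of wild-type (WT) C57BL/6 mice, 23 weeks of age by the study's methods. Pachytene spermatocytes were enriched by fluorescence-activated sorting (FACS) on DNA content and were kept in culture for 24 h with DMSO, the solvent control (Ctrl, n = 2 libraries), or with 10 μM AZ20, an inhibitor of the kinase ATR (AZ20, n = 2 libraries). By the methods, the cells of each mouse were divided between both conditions, so that libraries with the same replicate number were taken to come from 1 mouse, and each library was made from 15000 cells. Both groups had therefore gone through the same sort and the same culture, and neither stands for cells in the testis.

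The ribosome is built from a fixed set of proteins, most of which are encoded by a single working gene that nearly every cell transcribes at a high level. In male meiosis the X and Y chromosomes are transcriptionally silenced in the pachytene stage (meiotic sex chromosome inactivation, MSCI), and signalling by ATR, a kinase of the DNA damage response, acts on the chromatin of these chromosomes. X-linked ribosomal protein genes are silenced with them, and autosomal paralogs, several of them copied from the X-linked parent through its RNA, are expressed in germ cells; Rpl10l is known to stand in for Rpl10 in spermatocytes.

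Values are transcripts per 1000000 (TPM), a read count divided by the length of the gene and scaled to a common total, so that levels can be compared between genes. Sequencing depth, as reads assigned to genes, was 14009602 and 15898510 for the Ctrl and 20314055 and 18595926 for the AZ20 libraries. All 9 markers of pachytene spermatocytes were detected, with a summed level of 4970 and 5673 TPM in Ctrl and 5654 and 6318 TPM in AZ20. The 10 markers of spermatogonia summed to 43.4 to 75.5 TPM, and 3 of them were at 0 in every library. Markers of somatic cells were low: those of Sertoli cells summed to at most 11.1 TPM, Leydig cells to 2.31, macrophages to 1.47 and peritubular myoid cells to 4.60. The 10 markers of round spermatids, none of them at 0, summed to 377 and 156 TPM in Ctrl and 803 and 262 TPM in AZ20, and so overlapped between groups but were higher with AZ20 within both replicate numbers.

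How far an X-linked gene and its paralog can be told apart in such data depends on their sequence. The start of the coding sequence of Rpl10 and Rpl10l and of Rpl36a and Rpl36al, and the whole of Rpl39 and Rpl39l without the stop codon, are shown because every comparison within these pairs rests on reads that map to 1 of the genes only. Each line reads 5′ to 3′ on the coding strand of the GENCODE transcript of GRCm38, with the bases that differ within the pair in capitals.
Rpl10: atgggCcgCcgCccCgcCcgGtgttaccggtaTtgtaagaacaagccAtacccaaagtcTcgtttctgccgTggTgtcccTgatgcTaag
Rpl10l: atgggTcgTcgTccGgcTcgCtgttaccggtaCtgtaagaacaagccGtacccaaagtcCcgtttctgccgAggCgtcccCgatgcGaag
Rpl36a: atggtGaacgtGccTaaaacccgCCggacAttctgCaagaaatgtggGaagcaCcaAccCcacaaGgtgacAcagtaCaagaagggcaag
Rpl36al: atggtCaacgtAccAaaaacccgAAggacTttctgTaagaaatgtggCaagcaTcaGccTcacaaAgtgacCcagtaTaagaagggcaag
Rpl39: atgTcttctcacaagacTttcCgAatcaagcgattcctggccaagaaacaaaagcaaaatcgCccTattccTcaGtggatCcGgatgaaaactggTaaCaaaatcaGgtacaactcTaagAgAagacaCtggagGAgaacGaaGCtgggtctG
Rpl39l: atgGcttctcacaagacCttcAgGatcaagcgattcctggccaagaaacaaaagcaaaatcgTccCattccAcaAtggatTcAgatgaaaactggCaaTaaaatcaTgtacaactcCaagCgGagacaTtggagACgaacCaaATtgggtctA
Over the first 90 coding bases, Rpl10 and Rpl10l differed at 13 and Rpl36a and Rpl36al at 14, and Rpl39 and Rpl39l differed at 23 of 153. Over the whole coding sequence the identity was 84.7% for Rpl10 and Rpl10l (98 mismatches in 642 bases), 87.7% for Rpl36a and Rpl36al (39 in 318) and 85.0% for Rpl39 and Rpl39l. Most of these mismatches fell on the last base of a codon: 89 of the 98, 35 of the 39 and 16 of the 23. No stretch of 150 bases, the length of 1 read, was shared by the members of any of these pairs.

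The genes themselves lie far apart in the genome (GRCm38). Rpl10 (chrX:74270812-74273135, plus strand) has 7 exons in the transcript used, whereas Rpl10l (chr12:66283379-66284401, minus strand) has 1. Rpl36a (chrX:134585654-134588062, plus strand) has 5 exons and Rpl36al (chr12:69182731-69184083, minus strand) has 2. Rpl39 (chrX:37082520-37085402, minus strand) and Rpl39l (chr16:10170226-10174911, plus strand) have 3 exons each. Rps4x (chrX:102184941-102189394, minus strand, 7 exons) was set beside a 1-exon gene on chromosome 6 listed as Rps4y2, for which RefSeq gives the symbol Rps4l and the class of a transcribed pseudogene.

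Copies elsewhere in the genome limit what can be counted, because the authors kept only reads with a single alignment. Of all stretches of 150 bases in the Rpl10 transcript, 90.9% also occurred in a transcript of 1 of 8 other genes, and for Rpl36a the share was 81.1%. It was 4.48% for Rps4x and 0 for Rpl39. Among the paralogs it was 0 for Rpl10l, Rpl39l and Rps4y2 and 12.5% for Rpl36al. How much of the Rpl10 and Rpl36a reads this removed was not measured, and the rule for alignments was the same in Ctrl and in AZ20.

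All 4 X-linked members were near or at 0 in Ctrl and higher in both AZ20 libraries. Most X-linked genes did the same: of the 341 tested, 93% were higher with AZ20 within both replicate numbers. The median level of these 341 genes in Ctrl was 0.094 TPM, and a gene was tested when its mean TPM was above 1 in either group. Most of the 341 were thus tested only through their level in AZ20, so a higher level there was a condition of being counted. Rpl10, a large-subunit protein close to the catalytic centre, and Rpl36a, a large-subunit protein near the exit site of tRNA, rose with AZ20, whereas the changes of Rpl39, which lines the tunnel through which the new protein leaves, and of Rps4x, a small-subunit protein, did not pass the test. Rpl10 stood at 1.37 and 1.96 TPM in Ctrl (11 and 18 reads) and at 34.5 and 35.0 TPM in AZ20 (399 and 365 reads). Rpl36a stood at 0.608 and 0 TPM in Ctrl (3 and 0 reads) and at 18.0 and 11.5 TPM in AZ20 (128 and 74 reads). In both genes every AZ20 library lay above every Ctrl library, by a margin wider than the gap between replicates.

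The other X-linked members were at 0 in Ctrl and had fewer reads in AZ20 than Rpl10 and Rpl36a. For Rpl39, 0 reads were counted in either Ctrl library, and AZ20 had 9 and 3 reads, or 1.57 and 0.580 TPM. For Rps4x, Ctrl was likewise at 0 reads throughout, and AZ20 had 5 and 40 reads, or 0.393 and 3.48 TPM. The AZ20 libraries thus differed widely from each other for Rps4x, while for Rpl39 their order rests on 9 and 3 reads.

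On the scale of log2(TPM + 1), which understates the change of genes with low TPM, Rpl10 rose by 3.75 ± 0.24 (SE) with an adjusted p of 2.09e-04, and Rpl36a rose by 3.61 ± 0.36 with an adjusted p of 0.00175 (limma with a trend, Benjamini-Hochberg adjustment over all 10316 genes tested). For Rps4x the change was 1.32 ± 0.56 (adjusted p = 0.554) and for Rpl39 1.01 ± 0.39 (adjusted p = 0.494). A gene was called when it changed at least 2-fold with an adjusted p under 0.05. By this rule 2 of the 4 X-linked members were called higher, against 63.3% of the 341 X-linked genes tested. Rpl36a, Rpl39 and Rps4x, like most of the 341 X-linked genes, entered the test only through their level in AZ20. A higher level there was therefore a condition of being tested.

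In reads pooled over each group, Rpl10 was 20.6 times as high in AZ20 (exact 95% interval 14.2 to 31.0) and Rpl36a was 52.6 times as high (17.8 to 257). Set against a floor of 3 reads over both Ctrl libraries together, Rps4x was at least 11.7-fold higher and Rpl39 at least 3.13-fold higher. Both limits depend on the AZ20 library: with AZ20 replicate 1 alone the limit was 2.48-fold for Rps4x and 4.46-fold for Rpl39, and with replicate 2 alone it was 22.0-fold and, from 3 reads, 1.65-fold. These intervals and floors cover counting error only, since reads without molecular identifiers are not independent molecules.

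On the log2(TPM + 1) scale, the 2 called genes stood above the middle of the X-linked genes and the other 2 well below it. The median change of the 341 X-linked genes tested was 2.61 (quartiles 1.46 and 4.01), and Rpl10 ranked 101st and Rpl36a 109th among them. Rps4x ranked 274th and Rpl39 302nd. Whichever AZ20 library was left out, neither call stood, with adjusted p of 0.103 without replicate 1 and 0.103 without replicate 2 for Rpl10 and 0.190 and 0.143 for Rpl36a, and 0 of the X-linked genes were then called. The changes themselves were 3.76 and 3.74 for Rpl10 and 3.30 and 3.91 for Rpl36a, and the 1 AZ20 library left was assumed to vary like the Ctrl libraries. Without a Ctrl library both genes were still called. In bulk samples fewer cells of a type and less RNA per cell cannot be told apart. The round spermatid markers were also higher with AZ20 within both replicate numbers. Their sums overlapped between the groups, with 377 and 156 TPM in Ctrl and 803 and 262 TPM in AZ20. Whether they had a part in the changes of the X-linked members was not tested.

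**Figure D1:**
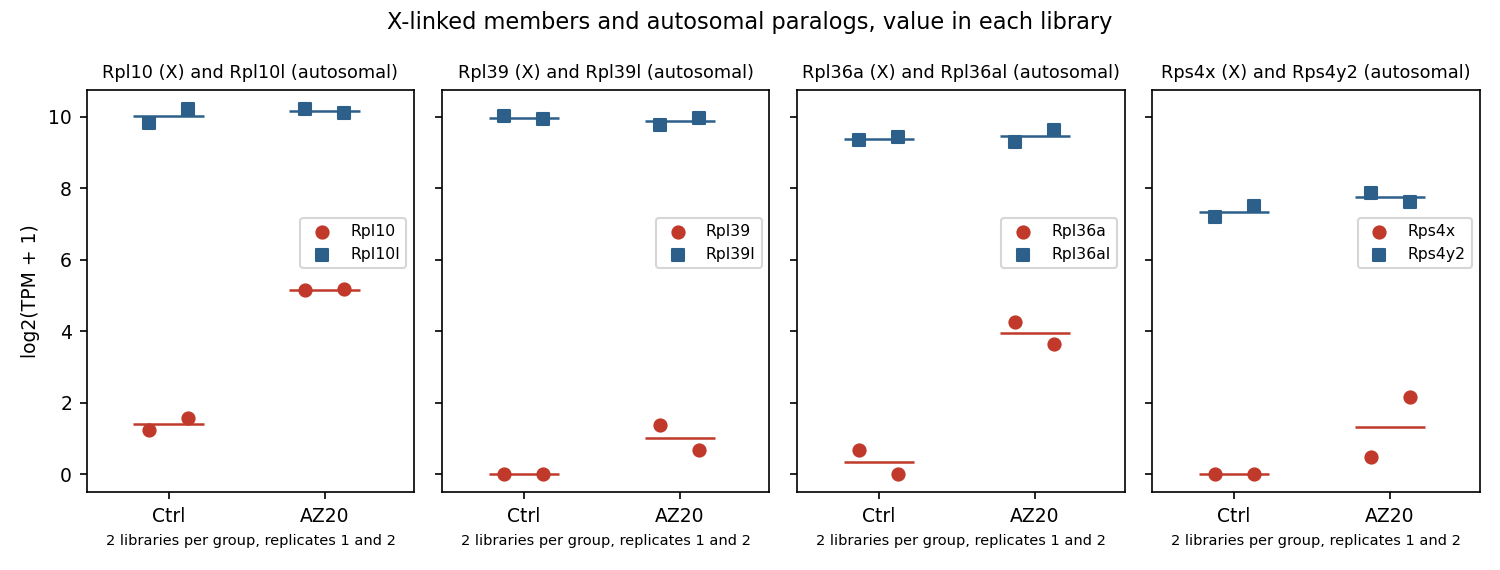
Level of each X-linked member (red circles) and of its autosomal paralog (blue squares) in each of the 2 Ctrl and 2 AZ20 libraries, as log2(TPM + 1). Horizontal lines are group means; replicate 1 is on the left and replicate 2 on the right within each group. As counted from reads with a single alignment, Rpl10 and Rpl36a rise in AZ20 but remain far below Rpl10l and Rpl36al, whose Ctrl and AZ20 values overlap.

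The autosomal paralogs were among the abundant mRNAs in both groups, and none of them was called. Rpl10l stood at 897 and 1194 TPM in Ctrl and at 1187 and 1102 TPM in AZ20. Rpl39l, the germ-cell paralog of Rpl39, stood at 1030 and 979 TPM in Ctrl and at 876 and 1005 TPM in AZ20. Rpl36al stood at 646 and 690 TPM in Ctrl and at 623 and 797 TPM in AZ20. The groups overlapped in all 3 genes.

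The fitted changes of the 3 paralogs were within their error of 0 or near it: 0.14 ± 0.17 (SE) for Rpl10l, with a 95% interval of -0.26 to 0.55, -0.098 ± 0.139 for Rpl39l (-0.43 to 0.23) and 0.078 ± 0.165 for Rpl36al (-0.31 to 0.47). None of these intervals reached 2-fold. Rps4y2 stood at 145 and 180 TPM in Ctrl and at 233 and 195 TPM in AZ20, so that both AZ20 libraries lay above both Ctrl libraries. Its change of 0.40 ± 0.19 did not pass the test (adjusted p = 0.626).

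Within each pair the X-linked gene was a small share of its paralog in both groups. Rpl10 was 0.153% and 0.164% of the level of Rpl10l in Ctrl and 2.91% and 3.18% in AZ20. Rpl36a was 0.0941% and 0% of Rpl36al in Ctrl and 2.89% and 1.45% in AZ20. Rpl39 was 0% of Rpl39l in both Ctrl libraries and 0.179% and 0.0578% in AZ20, and Rps4x was 0% of Rps4y2 in Ctrl and 0.168% and 1.79% in AZ20. With much of the Rpl10 and Rpl36a transcripts shared with other genes, these shares need not give the ratio of the mRNAs themselves.

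The difference between the members of a pair, on the log2(TPM + 1) scale, moved by 3.61 for Rpl10 and Rpl10l (3.50 and 3.72 within replicate numbers 1 and 2). For Rpl36a and Rpl36al it moved by 3.53 (3.61 and 3.44). It moved by 1.11 for Rpl39 and Rpl39l (1.60 and 0.62) and by 0.93 for Rps4x and Rps4y2 (-0.20 and 2.05). In the last pair the replicate numbers thus went in opposite directions. An exact two-sided permutation test over libraries gave p = 0.33 for the first 3 pairs, the smallest that 2 against 2 libraries allow, and p = 0.667 for the last (0.444 and 0.667 when adjusted over the 4 pairs), so that the design could not have passed a threshold of 0.05.

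The summed level of an X-linked gene and its paralog was set almost wholly by the paralog. Rpl10 and Rpl10l together reached 899 and 1196 TPM in Ctrl and 1221 and 1137 TPM in AZ20, of which Rpl10 made up 2.95% in AZ20. Rpl36a made up 2.04% of its pair in AZ20, Rps4x 0.897% and Rpl39 0.114%. The sums of Rpl10 and Rpl10l in the 2 groups differed by less than the 2 Ctrl libraries did.

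**Figure D2:**
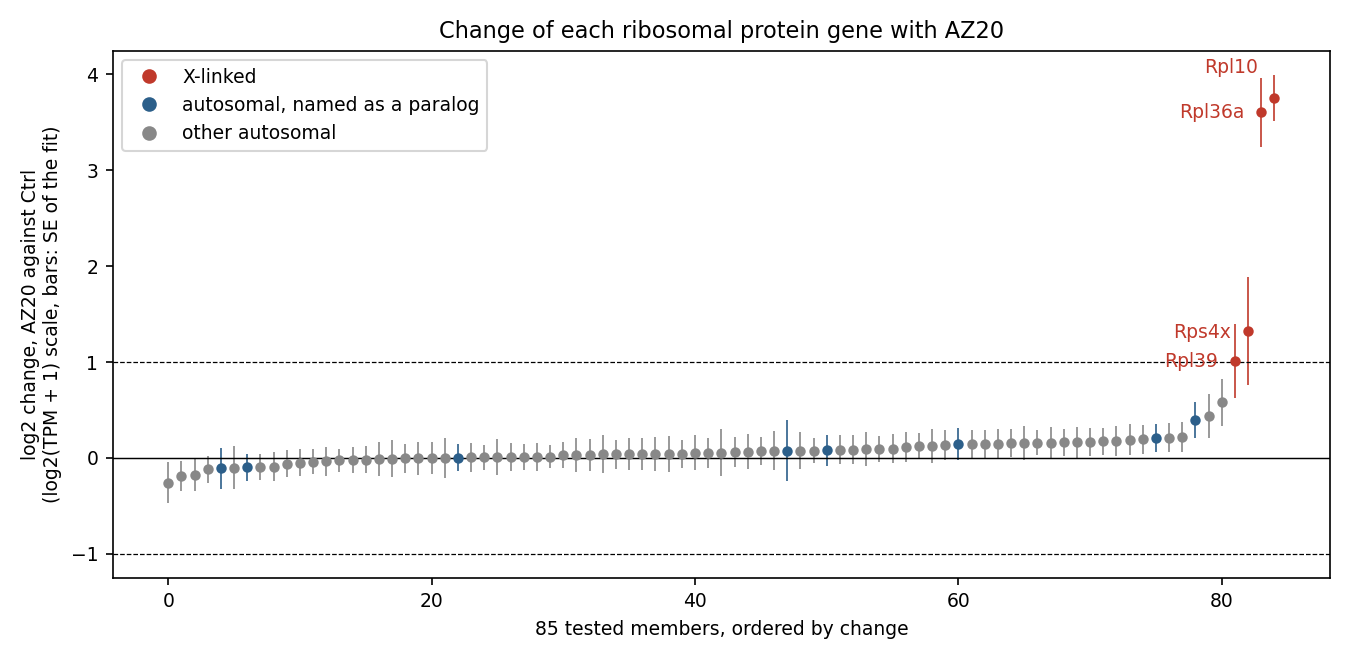
Change with AZ20 of each of the 85 tested members on the log2(TPM + 1) scale, with the standard error of the limma fit; red points are X-linked, blue points autosomal genes named as paralogs and grey points other autosomal members. Dashed lines mark 2-fold. Rpl10 at 3.75 and Rpl36a at 3.61 stand apart, and the 81 autosomal members lie between -0.26 and 0.58.

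The autosomal members, by contrast, showed no called change. Of the 82, 81 had a mean TPM above 1 in a group and were tested, and Rpl26 was not, with 0.365 and 0.160 TPM in Ctrl and 0.253 and 0 in AZ20. None of the 81 was called higher, against 0.101% of the 9926 autosomal genes tested, and none was called lower, against 0.0504%. At an unadjusted p under 0.05, limma again gave 0 members higher, against 5.17% of the autosomal genes, and 0 lower, against 1.18%. A voom fit on the recovered reads also called 0 members in either direction.

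The changes were also small. The median change of the 81 members was 0.054 (quartiles -0.00028 and 0.14), beside 0.059 (-0.12 and 0.29) for all autosomal genes tested. A change of less than 0.5 was found for 80 of the 81, or 98.8%, beside 84.5% of the autosomal genes. The 95% interval lay within 2-fold in both directions for 80 members, beside 65.3% of the autosomal genes, and the exception was Rps27. The members are more abundant than most genes, and the median standard error was 0.155 for the members and 0.263 for the autosomal genes.

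By direction, 59 of the 81 had a higher and 22 a lower mean in AZ20 (72.8% higher, beside 58.4% of the autosomal genes tested). Both AZ20 libraries lay above both Ctrl libraries for 18 members (22.2%), a share near the 24.1% of all autosomal genes. Both lay below for 1 member, Rpl34 (1.23%), beside 12.1% of the autosomal genes. For 28 members (34.6%) the AZ20 value was higher within both replicate numbers, beside 34.1% of the autosomal genes. For 5 (6.17%) it was lower within both, beside 20% of the autosomal genes. For the other 48 (59.3%) the replicate numbers went in opposite directions, beside 45.8% of the autosomal genes.

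The whole set made up a steady share of the transcripts. Summed over the 86 members, the level was 51939 and 55942 TPM in Ctrl and 52963 and 57805 TPM in AZ20, or 5.19% and 5.59% of the total and 5.30% and 5.78%. The groups overlapped, with means of 53940 ± 2830 (SD, n = 2) and 55384 ± 3424 TPM and a ratio of 1.03 (exact two-sided permutation p = 0.667 without the pairing, where 0.33 is the smallest possible). Within same-numbered libraries the ratio was 1.02 for replicate 1 and 1.03 for replicate 2. The 49 large-subunit autosomal members summed to 32591 ± 2138 TPM in Ctrl and 33481 ± 2143 in AZ20, and the 33 small-subunit members to 21348 ± 692 and 21850 ± 1284, so that both differences were within the spread of the libraries. The 4 X-linked members together supplied 1.98 and 1.96 TPM in Ctrl and 54.5 and 50.6 TPM in AZ20.

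**Figure D3:**
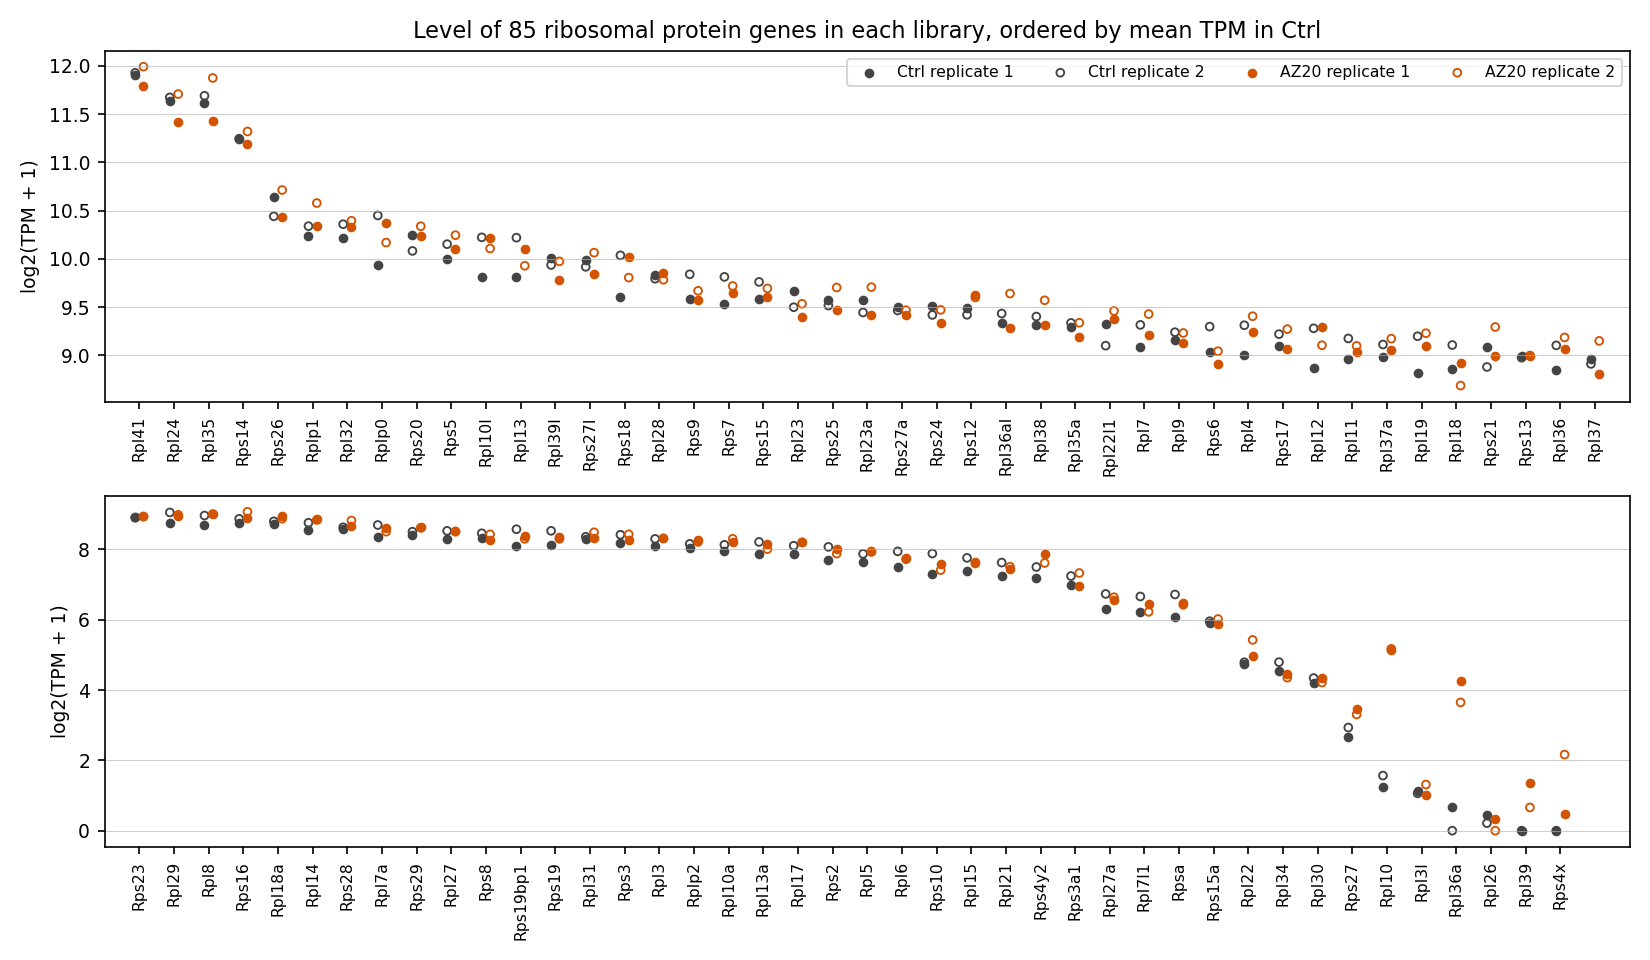
Level of 85 of the 86 members in the 2 Ctrl libraries (grey) and the 2 AZ20 libraries (orange) as log2(TPM + 1), ordered by the mean in Ctrl; filled points are replicate 1 and open points replicate 2. The scales of the upper and lower rows differ. Rpl10, Rpl36a, Rpl39 and Rps4x, at the right of the lower row, have group means furthest apart; over the 81 tested autosomal members the groups also separate for 18 with AZ20 above and 1 with AZ20 below.

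Levels in Ctrl spread widely, although most ribosomal proteins are present in equal number in the ribosome. The 72 autosomal members that are neither named as paralogs nor Rps19bp1 had quartiles of 287 and 751 TPM, and 49 of them lay between 200 and 1000 TPM. Among the most abundant members were Rpl41, which encodes the shortest ribosomal protein, with a mean of 3860 TPM, Rpl24 with 3220, Rpl35 with 3215 and Rps14 with 2418. In all 4 the AZ20 libraries lay on both sides of the Ctrl libraries. Rpl41 ranked 21st among all genes tested, and 84.7% of the 85 tested members had over 100 TPM in Ctrl, beside 14.5% of all genes tested.

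Of these 72 genes, 7 had under 100 TPM in Ctrl: Rps27, Rpl30, Rpl34, Rpl22, Rps15a, Rpsa and Rpl27a. For Rps27, a small-subunit protein with a zinc finger, 98.0% of the stretches of 150 bases also occurred in 2 other genes, and 31 and 44 reads were counted in Ctrl. Rps15a was divided by a gene length of 5134 bases, the longest among the members, so that its 3035 and 3619 reads gave 58.6 and 61.1 TPM, while the 2990 and 3374 reads of Rps13, with a length of 582 bases, gave 509 and 503 TPM. Across the 81 autosomal members the length correlated with TPM in Ctrl (Spearman's rho = -0.46) and not with reads (rho = 0.046). These are correlations across genes that share the same libraries, and the length is itself the divisor of TPM.

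Sharing sequence with other genes was common but did not order the levels. At least 1 stretch of 150 bases occurred in another gene for 69 of the 86 members, and over 50% of them did for 16. Among the autosomal members tested, the 16 without a shared stretch had a median of 481 TPM in Ctrl and the 14 with over 50% shared had a median of 582 TPM (rho = -0.11 over 81 genes). The search covered annotated transcripts only and took no account of paired reads, so it does not give the share of reads that was lost. Rpl26, with 2 and 1 reads in Ctrl, had only 8.75% of its stretches in other genes.

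Other members named as paralogs differed from their parent genes in either direction. Rps27l, a paralog of Rps27 known as a p53 target, stood at 1011 and 966 TPM in Ctrl and at 915 and 1069 in AZ20, and was 165 times as high as Rps27 in Ctrl. Rpl22l1 stood at 638 and 548 TPM in Ctrl and at 666 and 703 in AZ20, and was 22.8 times as high as Rpl22 in Ctrl. Rpl22, an RNA-binding large-subunit protein, stood at 25.5 and 26.6 TPM in Ctrl and at 30.3 and 42.0 TPM in AZ20. The share of stretches found in other genes was 98.0% for Rps27 and 0 for Rps27l, and 0 for Rpl22 and 20.8% for Rpl22l1, and its part in these ratios was not tested.

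Rpl3l and Rpl7l1 showed the opposite order. Rpl3l, the striated-muscle paralog of Rpl3, stood at 1.18 and 1.09 TPM in Ctrl and at 1.03 and 1.48 in AZ20, and Rpl3 was 258 times as high in Ctrl. Rpl7l1, a factor of large-subunit assembly, stood at 74.2 and 100 TPM in Ctrl and at 86.4 and 73.7 in AZ20, and Rpl7 was 6.78 times as high. The ratios of the 4 pairs in AZ20 kept this order.

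The largest changes among the autosomal members were those of Rps27 and Rpl22, at low levels, and of Rps4y2, at a higher level. Not every member at a low level changed: Rpl30 stood at -0.00025 ± 0.21. Rps27 was highest, with 5.34 and 6.63 TPM in Ctrl and 9.93 and 8.88 in AZ20 and a change of 0.58 ± 0.25 (adjusted p = 0.549). Rpl22 followed with 0.44 ± 0.23 (adjusted p = 0.677) and then Rps4y2. In these 3 genes the groups did not overlap, but no change passed the test.

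Among the abundant members the next 2 were Rpl17 and Rpl10a. Rpl17, which lies at the mouth of the exit tunnel, stood at 231 and 274 TPM in Ctrl and at 294 and 293 in AZ20 (0.22 ± 0.16, adjusted p = 0.788). Rpl10a, a large-subunit protein and no paralog of Rpl10, stood at 248 and 279 TPM in Ctrl and at 296 and 314 in AZ20 (0.21 ± 0.15, adjusted p = 0.785). In both genes the 2 AZ20 libraries lay above the 2 Ctrl libraries.

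At the lower end stood Rpl34, Rps6, Rpl18, Rpl23 and Rpl7l1. Rpl34 stood at 22.1 and 26.7 TPM in Ctrl and at 21.0 and 19.4 TPM in AZ20, with a change of -0.26 ± 0.21 that did not pass the test (adjusted p = 0.820). Rps6, the small-subunit protein that S6 kinases phosphorylate, stood at 525 and 628 TPM in Ctrl and at 480 and 527 in AZ20 (-0.19 ± 0.16). Rpl18 stood at 463 and 551 TPM in Ctrl and at 484 and 411 in AZ20, and Rpl23 at 811 and 722 TPM in Ctrl and at 671 and 741 in AZ20. Except for Rpl34 these groups overlapped.

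The replicates of 61 of the 81 autosomal members (75.3%) differed by more in Ctrl, and those of 54 (66.7%) by more in AZ20, than the groups did, beside 59.2% and 58.5% of the autosomal genes tested. Ctrl replicate 2 was above Ctrl replicate 1 in 64 of the 81 autosomal members (79.0%), beside 45.7% of all autosomal genes tested, with a median difference of 0.15 on the log2(TPM + 1) scale. AZ20 replicate 2 was above AZ20 replicate 1 in 50 members (61.7%), beside 45.7%, with a median difference of 0.079. Both medians exceed the 0.054 between the groups, but a difference between single libraries varies more than a difference between means of 2 libraries.

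The 2 differences did not run in parallel. Rplp0, which forms the stalk of the large subunit, stood at 980 and 1397 TPM in Ctrl and at 1326 and 1150 in AZ20. Rps21, a small-subunit protein, stood at 543 and 470 TPM in Ctrl and at 508 and 627 in AZ20. Both genes were picked after their values were seen, as examples of a crossed order: 28 members were higher in Ctrl replicate 2 and in AZ20 replicate 1, 14 were higher in Ctrl replicate 1 and in AZ20 replicate 2, 36 were higher in replicate 2 of both groups and 3 in replicate 1 of both. The same counts are not given for all autosomal genes, and the members share the same libraries, so they are not independent. Across the 81 members the differences correlated at r = -0.585, whereas across the 9926 autosomal genes the correlation was 0.231.

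Gene length moved with these differences. Across the members, length correlated at rho = 0.416 with the difference between Ctrl replicates and at -0.192 with that between AZ20 replicates, and across all autosomal genes at -0.0932 and 0.245. In the 40 members longer than the median of 725 bases the difference between Ctrl replicates was 0.25, and in the 41 others 0.094. The part of length in these differences was not tested. Length and the change with AZ20 correlated at rho = -0.017 in the members.

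**Figure D4:**
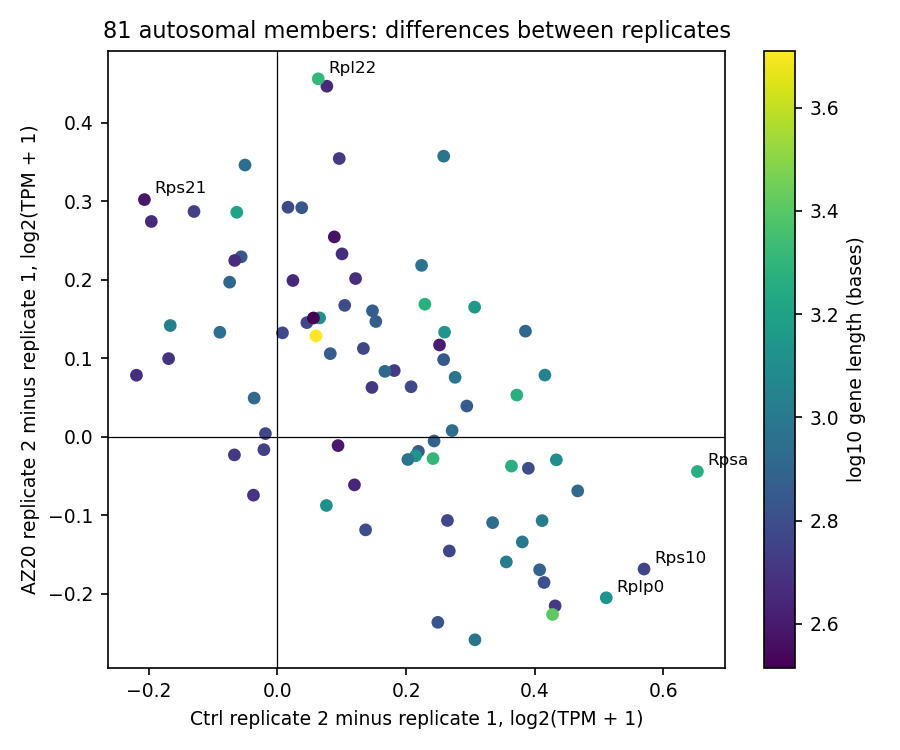
Difference between replicates 2 and 1 in Ctrl (x axis) and in AZ20 (y axis) for the 81 tested autosomal members on the log2(TPM + 1) scale, coloured by log10 gene length in bases. Most points lie to the right of 0 (64 of 81), and the cloud slopes downwards (r = -0.585).

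Ribosomal proteins with other names behaved like the autosomal members. Fau, a small-subunit protein made as a fusion with a ubiquitin-like protein, stood at 1303 and 1498 TPM in Ctrl and at 1331 and 1485 in AZ20. Gnb2l1, also known as Rack1, a scaffold on the small subunit, stood at 202 and 290 TPM in Ctrl and at 244 and 254 in AZ20. The groups overlapped in both, and their changes of 0.0091 and 0.041 did not pass the test.

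Among other genes of translation, in the lists used here, limma on TPM called only genes of the sex chromosomes. Of 90 tested factors of ribosome biogenesis, 2 were called higher, both X-linked, and 0 lower, beside 2.28% of all 10316 genes tested that were called higher and 0.0485% called lower. These were Utp14a, a processing factor of the small subunit, at 0.530 and 0.107 TPM in Ctrl and 4.87 and 5.58 in AZ20 (2.26 ± 0.32, adjusted p = 0.0113), and Las1l, an endonuclease of large-subunit maturation, at 0 TPM in both Ctrl libraries and 3.84 and 5.66 in AZ20 (2.51 ± 0.33, adjusted p = 0.00753). The voom fit also called Gnl3l, another X-linked factor. At an unadjusted p under 0.05, limma gave 10 factors higher and 1 lower, beside 5.17% and 1.18% of the autosomal genes tested. The 10 include all 4 X-linked factors tested. The median change of the list was 0.072, beside 0.072 for all genes tested.

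Of 39 tested initiation factors, 1 was called higher: Eif2s3y, the Y-linked copy of a subunit of the factor that brings the initiator tRNA, at 2.35 and 0.196 TPM in Ctrl and 33.6 and 30.8 in AZ20 (4.05 ± 0.46, adjusted p = 0.00381). None of 8 elongation factors and none of 17 transcripts, other than the members, listed with a terminal oligopyrimidine (TOP) start was called by limma on TPM or by voom. The TOP list is not separate, since it repeats genes of the elongation, initiation and biogenesis lists. At an unadjusted p under 0.05, limma gave 2 of the elongation factors and 1 of the TOP list higher. Of the autosomal genes tested, 5.17% were higher and 1.18% lower at this threshold. None of 76 mitochondrial ribosomal proteins was called by either fit, with 2 higher and 2 lower at an unadjusted p under 0.05 and a median change of -0.062. Their summed level was 18088 and 19101 TPM in Ctrl and 17558 and 17923 TPM in AZ20.

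Ribosomal protein mRNAs usually begin with a TOP start, which ties their translation to growth signalling. RefSeq start sites of GRCm38.p6 were found for 65 of the 86 members, with 77 start sites in all. A C at the start followed by 4 bases that are each C or T, on the coding strand, stood at 16.9% of these sites and at 2.51% of the 32851 sites of all genes. Within 10 bases of the start it was found at 53.2% and 30.7%. Of the 4 sites of the X-linked members, 0 had it at the start and 2 had it within 10 bases. The listed starts can be off by several bases, so that a missing match says only that these letters do not stand at the listed position.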

How the data were processed

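RNA-seq was done on 4 libraries of sorted and cultured pachytene spermatocytes. Per the methods and the submitters' notes, the authors used Trimmomatic 0.39 for trimming and STAR 2.5.4b for unique alignment to GRCm38, took counts per gene of the UCSC refGene annotation from featureCounts 2.0.1 and deposited TPM computed from these counts. Reads that could not be placed at a single site are therefore uncounted, and how many these were was not measured. Culture was at 32 °C by the methods and at 34 °C by the labels.

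The 86 members and the gene lists were chosen with earlier results of these data known. The 92 lines without a gene symbol were left out. Whole reads were recovered from the TPM for all 16857 genes above 0, since 1 gene has 1 length in every library (whole within 0.05 bases), and 14.3% of genes were raised by a whole factor so that the length came out whole. In a simulation the reads of 92.5% of 16492 genes came out exactly. Genes were placed with GENCODE and RefSeq, and 137 were not placed.

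Genes with a mean TPM above 1 in either group (10316) were fitted as log2(TPM + 1) with limma 3.58.1 (R 4.3.3) with an intensity trend. Genes were called at 2-fold or more when the p-value, adjusted by Benjamini-Hochberg, was under 0.05. Sums and paralog pairs were compared with exact two-sided permutation tests. Named were the X-linked members, paralogs, members with an adjusted p under 0.05, the 5 highest and 5 lowest autosomal changes, the 5 highest and 3 lowest levels, and ribosomal proteins with other names, of which 2 genes are not reported here. Sequence windows were 150 bases. Python 3.11.15 with pandas 2.3.3, scipy 1.17.1 and biopython 1.88 was used otherwise. Alternatives were pseudocounts of 0.1 and 0.01, an autosomal total, quantile normalization, other filters and thresholds, no trend, voom, the replicate block, core members only and leaving out each library.

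The replicate numbers were taken as pairs because, by the methods, each mouse supplied cells to both conditions. Deviations of same-numbered libraries from their group means correlated at 0.231 over the autosomal genes and at -0.585 over the autosomal members.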

Additional observations from a re-analysis of the deposited data

How the results depend on the processing

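With 2 libraries per group, leaving out 1 decides most limits: the count of X-linked members called higher ranged from 0 to 2, being 0 without either AZ20 library and 2 without either Ctrl library. It was 1 with a pseudocount of 0.01 and 1 with voom, where Rpl36a lost its call (adjusted p = 0.254 and 0.0606). No autosomal member was called in either direction under any of these alternatives. Without 1 library, the median change of the autosomal members ranged from -0.013 (without Ctrl replicate 1) to 0.15, and the ratio of the summed level from 0.982 (without AZ20 replicate 2) to 1.07, with 0.990 without Ctrl replicate 1. These fits break the pairs. With same-numbered libraries taken as pairs, the medians were 0.11 and 0.038, beside 0.067 and 0.070 for all autosomal genes tested. The ratios were then 1.02 and 1.03. The pairs were inferred, and same-numbered libraries of the members correlated negatively (r = -0.585), so the direction of the set was not settled.

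With a pseudocount of 0.1 the change relative to the paralog was 4.18 for Rpl10, 3.51 for Rpl39, 5.69 for Rpl36a and 3.33 for Rps4x. With 0.01 it was 4.25, 6.69, 7.44 and 6.49, and with voom 4.20, 3.28, 5.83 and 4.10. Quantile normalization gave 3.40 for Rpl10 and 3.28 for Rpl36a, and leaving out 1 library gave 3.05 to 4.0 for Rpl36a. These rise as the pseudocount falls because the Ctrl values are near 0. The paired fit with a replicate block left the count of X-linked members called at 2 and changed no call of a member. It raised the count of autosomal genes called from 15 to 157, and that of round spermatid markers from 0 to 2 of 10. Quantile normalization moved the median change of all genes tested to -0.071 from 0.072, while that of the autosomal members was 0.057.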
